A study of Homo sapiens with 6 samples.

Results

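The alpha and beta tubulin isotype genes were compared between SUM159 cells that stably overexpress POGK and SUM159 cells that carry the empty vector. SUM159 is an established cell line from a human triple-negative breast tumour. The 10 members were taken by gene symbol, with earlier results of these data known, and were 4 alpha genes (TUBA1A, TUBA1B, TUBA1C and TUBA4A) and 6 beta genes (TUBB, TUBB2A, TUBB2B, TUBB3, TUBB4B and TUBB6) of the 18398 genes in the deposited table. The tested cells (called POGK cells) were stable SUM159 cells with POGK in the vector pLVX, in 3 libraries, and the control cells were SUM159 cells with pLVX, also in 3 libraries. All cells grew in the same medium with serum, insulin and hydrocortisone. The labels do not say whether the stable cells are 1 clone or a pool, nor whether the replicates were grown separately. Each p-value therefore rests on the spread between these libraries alone, which may be technical.

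Alpha and beta tubulin pair into the dimer from which microtubules grow, the hollow filaments of the mitotic spindle, of cilia and of intracellular transport. Vertebrates carry several genes for each subunit, called isotypes, whose proteins differ mostly in the acidic tail at their end. Cells limit their own tubulin: when free dimers accumulate, the protein TTC5 binds the first amino acids of tubulin as it leaves the ribosome, and SCAPER brings in the CCR4-NOT complex, which starts decay of the mRNA being translated.

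The first 24 coding bases of each isotype are given because the start of the protein is what that feedback reads. Codons 2 to 4 are in capitals, and all sequences come from the Ensembl canonical transcript in GENCODE release 44 (hg38).
TUBA1A: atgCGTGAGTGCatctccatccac
TUBA1B: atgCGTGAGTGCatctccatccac
TUBA1C: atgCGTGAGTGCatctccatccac
TUBA4A: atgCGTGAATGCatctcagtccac
TUBB: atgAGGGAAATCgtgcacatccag
TUBB2A: atgCGCGAGATCgtgcacatccag
TUBB2B: atgCGTGAGATCgtgcacatccag
TUBB3: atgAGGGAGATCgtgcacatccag
TUBB4B: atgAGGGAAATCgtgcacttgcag
TUBB6: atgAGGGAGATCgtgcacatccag
All 4 alpha genes differ from all 6 beta genes in these codons. TUBA1A, TUBA1B and TUBA1C share CGTGAGTGC, TUBB shares AGGGAAATC with TUBB4B, and TUBB3 shares AGGGAGATC with TUBB6. The forms within the alpha genes are synonymous with each other, as are those within the beta genes.

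The last 60 coding bases of TUBB2A and TUBB2B are given because these neighbouring genes can share reads. The stop codon is in capitals.
TUBB2A: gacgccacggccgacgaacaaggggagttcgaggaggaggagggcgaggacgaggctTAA
TUBB2B: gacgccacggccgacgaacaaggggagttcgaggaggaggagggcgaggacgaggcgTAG
TUBB2A and TUBB2B differ at 2 of these 60 bases. Over the whole coding sequence TUBA1A was 97.2% identical to TUBA1B, TUBA1B 96.8% to TUBA1C, and TUBB2A 98.1% to TUBB2B. The other beta pairs were 80.9% to 87.7% identical, and alpha with beta pairs 53.4% to 55.8%. Words of 50 exon bases that occur more than 1 time in the genome made up 45.6% of TUBB2A, 27.1% of TUBA1B, 25.3% of TUBB2B, 22.5% of TUBA1A, 17.8% of TUBA1C and 14.5% of TUBB, against 9.92% of TUBB3, 8.94% of TUBB4B, 3.31% of TUBA4A and 0.564% of TUBB6. How the authors' counting treated reads from such stretches is not given in the sources used here, so the levels of these isotypes, TUBB included, carry an uncertainty that the replicate spread does not show. The strand setting is not given either.

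Total counts ran from 27645789 to 33689230 per library. POGK itself had 26565, 28258 and 23128 counts in the POGK libraries, against 1555, 2423 and 1987 in the control libraries. Of 4 genes that mark the line (VIM, CD44, EGFR and CAV1), all were abundant in both groups, and all were called by edgeR. VIM, the gene of vimentin, averaged 3344.5 CPM in POGK cells and 5960 CPM in control cells and fell 1.78-fold (CPM are counts scaled to library size, here with edgeR's TMM factors). CD44 fell 1.20-fold and EGFR 1.37-fold, and CAV1 rose 1.76-fold. Of 5 genes that the line should lack, 3 were in the table. EPCAM, an epithelial surface gene, averaged 0.227 CPM in POGK cells and 0.222 CPM in control cells, and ESR1, the estrogen receptor, averaged 0.123 CPM in POGK cells and 0.207 CPM in control cells. GATA3, a luminal factor, averaged 4.38 CPM in POGK cells and 8.601 CPM in control cells and fell 1.97-fold. Of 12 neuron markers, listed because TUBB3 and TUBB2B are abundant in neurons, 3 were in the table, with a summed level of 3.29 to 3.35 CPM in POGK libraries and 4.38 to 5.49 CPM in control libraries. RBFOX3, ELAVL3, ELAVL4, NEFL, NEFM, NEUROD1, INA, STMN2 and DCX are not analysed here. The control libraries spread more widely than the POGK libraries for all isotypes but TUBB2B and TUBB3. For TUBA1B, TUBA1C, TUBA4A, TUBB, TUBB4B and TUBB6 the coefficient of variation over 3 libraries was 1.20% to 2.09% in POGK cells. In control cells it was 4.83% to 19.0% for these isotypes. For TUBA1A it was 5.54% in POGK cells and 8.92% in control cells, and for TUBB2A 5.46% in POGK cells and 5.89% in control cells. The isotypes with few counts went the other way, TUBB2B with 19.5% in POGK cells and 3.55% in control cells and TUBB3 with 35.5% in POGK cells and 18.8% in control cells.

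Most tubulin isotypes were more abundant in POGK cells, and the isotypes moved by very different amounts. Of the 10 members, 6 rose (TUBB6, TUBB4B, TUBA1C, TUBA1B, TUBA4A and TUBB2A), 2 fell (TUBB2B and TUBB3) and TUBA1A and TUBB, that is 2, did not pass the test. By comparison, 66.0% of the 15889 genes tested were called (32.7% higher and 33.3% lower) by edgeR's quasi-likelihood test at a Benjamini-Hochberg adjusted p below 0.05, so 8 called among 10 members is to be read against that high background. Over all genes 5202 were called higher and 5285 lower, and with library size alone as scaling 6575 higher and 3925 lower. All 10 members passed the filter on low counts. The median log2 fold change of POGK over control was 0.69 over the members, 0.90 over the 4 alpha genes and 0.35 over the 6 beta genes, where that of all genes tested was 0.0025. The levels of 9 members did not overlap between the groups, 7 higher and 2 lower in POGK cells, where 73.7% of all genes tested did not overlap (36.8% higher and 36.8% lower).

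**Figure D1:**
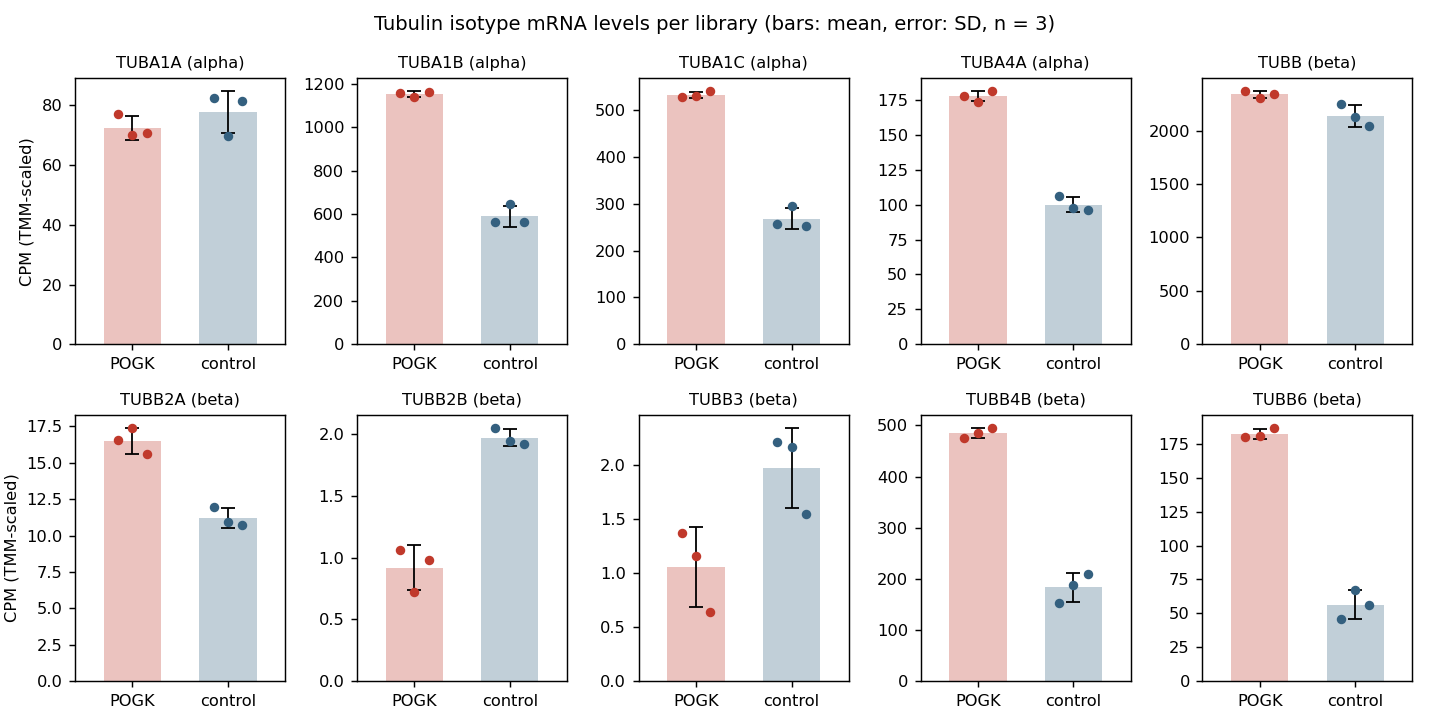
Level of each isotype in CPM on the TMM scale (y axis, from 0, with its own range in each panel) in POGK cells (left bar) and control cells (right bar). Points are libraries, bars are means and error bars are the SD of 3 libraries; TUBB6, TUBB4B, TUBA1B and TUBA1C are clearly higher in POGK cells, and TUBA1A overlaps between the groups.

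TUBB6, the class V beta isotype, rose the most. TUBB6 (ENSG00000176014; hg38 chromosome 18, 12307669 to 12344320, plus strand) had 6445, 6557 and 5546 counts in the POGK libraries, against 1130, 2095 and 1674 in the control libraries. It averaged 183 ± 3.74 CPM in POGK cells and 56.2 ± 10.7 CPM in control cells (SD, n = 3 each). All POGK libraries lay above all control libraries, of which control replicate 1 was lowest. The log2 fold change was 1.70 (standard error 0.12; adjusted p by edgeR 1.11e-05). Exons of AFG3L2 on the other strand cover 21.2% of the TUBB6 exons, and AFG3L2 rose too, with a log2 fold change of 0.53 (adjusted p by edgeR 0.000551); its part in the value of TUBB6 was not tested.

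TUBB4B, the class IVb isotype, had the next largest rise. TUBB4B (ENSG00000188229; chromosome 9, 137241287 to 137243707, plus strand) had 17025, 17526 and 14682 counts in the POGK libraries and 3793, 5884 and 6186 in the control libraries. The groups did not overlap, and control replicate 1 was again the lowest. It averaged 485 ± 9.74 CPM in POGK cells and 183 ± 28.2 CPM in control cells (SD, n = 3 each). The log2 fold change was 1.41 (standard error 0.11; adjusted p by edgeR 1.51e-05).

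TUBB, the class I beta isotype, was the most abundant tubulin mRNA per kilobase in both groups. TUBB (ENSG00000196230; chromosome 6, 30717435 to 30725538, plus strand) had 84767, 83442 and 69306 counts in the POGK libraries and 55794, 66520 and 60577 in the control libraries. After scaling, all POGK libraries lay slightly above all control libraries. TUBB averaged 2338 ± 31.5 CPM in POGK cells and 2137 ± 103 CPM in control cells (SD, n = 3 each). The log2 fold change was 0.13, with a 95% interval from -0.06 to 0.32, and the adjusted p by edgeR, which did not pass, was 0.193. It passed with library size alone as scaling, at 0.33 with an adjusted p of 0.0007, and without control replicate 1, at 0.17 with an adjusted p of 0.0056.

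TUBB2A and TUBB2B are neighbouring class II genes on chromosome 6 that went in opposite directions. TUBB2A (ENSG00000137267; 3153497 to 3157544, minus strand) had 592, 629 and 462 counts in the POGK libraries and 297, 343 and 318 in the control libraries. TUBB2B (ENSG00000137285; 3223324 to 3231730, minus strand), best known from neurons, had 38, 26 and 29 counts in the POGK libraries and 51, 61 and 57 in the control libraries. For each of the genes the groups did not overlap. TUBB2A rose with a log2 fold change of 0.56 (standard error 0.10; adjusted p by edgeR 0.00103) and TUBB2B fell with a log2 fold change of -1.10 (standard error 0.20; adjusted p by edgeR 0.00132). The number of TUBB2A counts per TUBB2B count was 15.6, 24.2 and 15.9 in the POGK libraries and 5.82, 5.62 and 5.58 in the control libraries. Exons of PSMG4 on the other strand cover 4.18% of the TUBB2B exons. PSMG4 averaged 17.0 CPM in POGK cells and 10.2 CPM in control cells, and its part in the value of TUBB2B was not tested.

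TUBB3, the class III isotype, is used widely as a neuron marker and lay close to the bottom of the family. TUBB3 (ENSG00000258947; chromosome 16, 89921392 to 89938761, plus strand) had 49, 42 and 19 counts in the POGK libraries and 55, 68 and 46 in the control libraries. It averaged 1.06 ± 0.38 CPM in POGK cells and 1.98 ± 0.37 CPM in control cells (SD, n = 3 each), without overlap, and POGK replicate 3 was the lowest library. The summed neuron markers given above were also lower in POGK cells, although SYP among them rose; their part in the values of TUBB3 and TUBB2B was not tested. A gene on the same strand, ENSG00000198211, which is not analysed here, covers 21.3% of the TUBB3 exons, and its part in the value of TUBB3 was not tested. TUBB3 fell, with a log2 fold change of -0.88 (standard error 0.28; adjusted p by edgeR 0.0208). The call was lost without POGK replicate 3 (-0.63, adjusted p of 0.0619), without control replicate 1 (-0.79, adjusted p of 0.0584), without control replicate 2 (-0.79, adjusted p of 0.0535) and with library size alone (-0.69, adjusted p of 0.0582), and its adjusted p ran from 0.00412 to 0.0619 over 13 alternatives.

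Among the alpha genes, TUBA1B and TUBA1C rose together, about 2-fold. TUBA1B (ENSG00000123416; chromosome 12, 49127782 to 49131397, minus strand), a major alpha isotype of dividing cells, had 41432, 41171 and 34517 counts in the POGK libraries and 13990, 20209 and 16677 in the control libraries. TUBA1C (ENSG00000167553; chromosome 12, 49188736 to 49274600, plus strand) had 18938, 19204 and 16050 counts in the POGK libraries and 6406, 9240 and 7533 in the control libraries. Neither gene overlapped between the groups, and control replicate 2 was the highest control library for each. Their log2 fold changes were 0.97 for TUBA1B (standard error 0.08; adjusted p by edgeR 2.39e-05) and 0.99 for TUBA1C (standard error 0.08; adjusted p by edgeR 1.74e-05). The number of TUBA1C counts per TUBA1B count was nearly the same in all 6 libraries, at 0.457, 0.466 and 0.465 in POGK libraries and 0.458, 0.457 and 0.452 in control libraries. The coding sequences of TUBA1B and TUBA1C are 96.8% identical, and the part of shared reads in this ratio was not tested. Exons of TUBA1B-AS1 on the other strand cover 43.96% of the TUBA1B exons. This RNA had 41, 54 and 39 counts in the POGK libraries and 19, 25 and 15 in the control libraries and rose, with a log2 fold change of 0.93 (adjusted p by edgeR 0.00853); its part in the value of TUBA1B was not tested.

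TUBA1A, which lies between TUBA1B and most of TUBA1C and is best known from developing neurons, did not follow. TUBA1A (ENSG00000167552; chromosome 12, 49184686 to 49189080, minus strand) had 2763, 2531 and 2093 counts in the POGK libraries and 2046, 2189 and 2416 in the control libraries. It averaged 72.6 ± 4.02 CPM in POGK cells and 77.9 ± 6.95 CPM in control cells (SD, n = 3 each), and the groups overlapped. The log2 fold change was -0.10, with a 95% interval from -0.29 to 0.09, and the adjusted p by edgeR, which did not pass, was 0.312. Its sign turned to 0.09 with library size alone, and without control replicate 2 it passed as lower, at -0.17 with an adjusted p of 0.0391. The number of TUBA1B counts per TUBA1A count, which no scaling between libraries affects, was 14.995, 16.3 and 16.5 in the POGK libraries and 6.84, 9.23 and 6.90 in the control libraries. Exons of TUBA1C on the other strand cover 9.02% of the TUBA1A exons, and the part of TUBA1C in the value of TUBA1A was not tested.

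TUBA4A, an alpha isotype known to be made without the final tyrosine that most alpha tubulins carry, also rose. TUBA4A (ENSG00000127824; chromosome 2, 219249710 to 219277902, minus strand) had 6362, 6290 and 5373 counts in the POGK libraries and 2643, 3053 and 2863 in the control libraries. All POGK libraries lay above all control libraries. It averaged 178 ± 3.70 CPM in POGK cells and 100.1 ± 5.47 CPM in control cells (SD, n = 3 each). The log2 fold change was 0.83 (standard error 0.07; adjusted p by edgeR 1.81e-05). Exons of STK16 on the other strand cover 17.0% of the TUBA4A exons, and STK16 fell, at -0.45 on the log2 scale (adjusted p by edgeR 0.000897); its part in the value of TUBA4A was not tested. The authors' deposited table gives the 10 members log2 fold changes of the same signs, and there too TUBA1A (adjusted p 0.504) and TUBB (adjusted p 0.174) were the only members above 0.05.

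**Figure D2:**
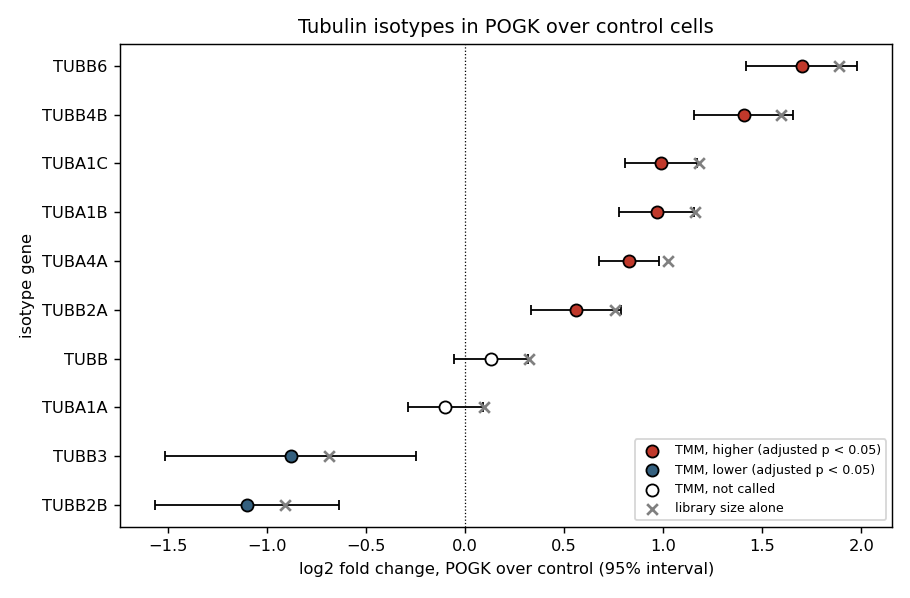
Log2 fold change of POGK over control (x axis) of each isotype gene (y axis), with its 95% interval. Filled points passed the edgeR test and crosses give the value with library size alone as scaling; the order runs from 1.70 for TUBB6 to -1.10 for TUBB2B, and the sign of TUBA1A differs between the scalings.

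Levels were also compared between isotypes per kilobase of annotated exon. In POGK cells the order was TUBB at 574 CPM per kb, TUBA1B at 323, TUBB4B at 238, TUBA1C at 119.9, TUBA4A at 48.04, TUBB6 at 46.4, TUBA1A at 19.0, TUBB2A at 5.68, TUBB2B at 0.22 and TUBB3 at 0.14. In control cells these levels were 525 for TUBB, 165 for TUBA1B, 89.8 for TUBB4B, 60.4 for TUBA1C, 27.1 for TUBA4A, 20.4 for TUBA1A, 14.3 for TUBB6, 3.85 for TUBB2A, 0.47 for TUBB2B and 0.27 for TUBB3. TUBB6 and TUBA1A thus stood in opposite order in the groups. In POGK cells TUBA4A and TUBB6 overlapped between libraries, as did TUBB2B and TUBB3, and no other neighbours in either order did. The order of these pairs in POGK cells, and of TUBB2B and TUBB3 in control cells, turned when the length of the canonical transcript was used.

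The make-up of the beta tubulin mRNA pool differed more between the groups than that of the alpha pool. TUBB made up 77.8%, 77.1% and 77.0% of the counts of the 6 beta genes in the POGK libraries, against 91.3%, 88.7% and 88.0% in the control libraries. TUBB4B took 15.6%, 16.2% and 16.3% in the POGK libraries and 6.21%, 7.85% and 8.98% in the control libraries. TUBB6 took 5.92%, 6.06% and 6.16% in the POGK libraries and 1.85%, 2.79% and 2.43% in the control libraries. None of these 3 shares overlapped between the groups. These shares depend on how long each gene is taken to be: per kilobase of exon TUBB made up 66.4 ± 0.61% in POGK cells and 82.8 ± 2.69% in control cells (SD, n = 3 each).

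In the alpha pool TUBA1A took 3.98%, 3.66% and 3.61% of the counts of the 4 genes in the POGK libraries and 8.16%, 6.31% and 8.19% in the control libraries, without overlap. TUBA1B averaged 59.5 ± 0.076% in POGK cells and 56.9 ± 1.27% in control cells, and TUBA1C 27.6 ± 0.27% in POGK cells and 25.9 ± 0.63% in control cells (SD, n = 3 each), neither overlapping. The share of TUBA4A overlapped, at 9.17 ± 0.085% in POGK cells and 9.68 ± 0.87% in control cells (SD, n = 3 each).

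**Figure D3:**
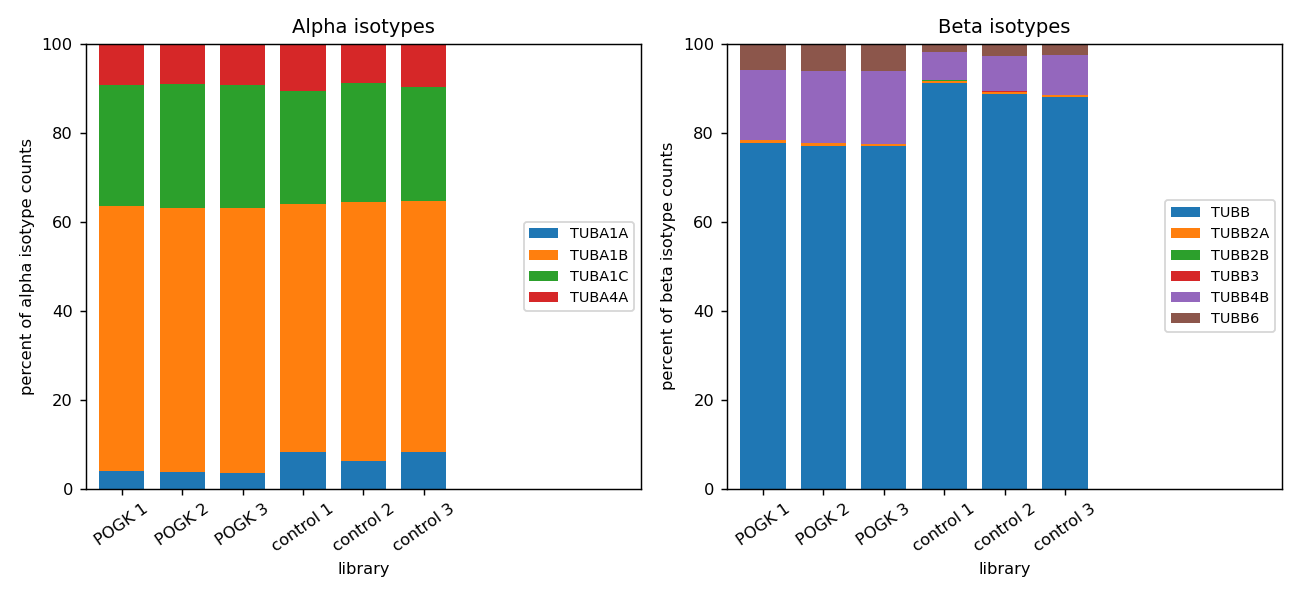
Share of each isotype in the counts of the 4 alpha genes (left) and of the 6 beta genes (right) in percent (y axis), 1 bar per library (x axis). TUBB takes less and TUBB4B and TUBB6 take more of the beta counts in all 3 POGK libraries than in any control library.

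Summed over their genes, alpha isotypes took 0.206%, 0.205% and 0.210% of all counts in the POGK libraries and 0.0893%, 0.106% and 0.0956% in the control libraries. Beta isotypes took 0.323%, 0.321% and 0.326% in the POGK libraries and 0.218%, 0.229% and 0.223% in the control libraries. Neither sum overlapped between the groups. These sums divide by raw library totals, so they differ more between the groups than TMM-scaled levels do. The TMM factors were 1.06 to 1.07 in the POGK libraries and 0.88 to 0.96 in the control libraries. The number of alpha counts per beta count was 0.641 ± 0.0034 in POGK cells and 0.434 ± 0.027 in control cells (SD, n = 3 each), and per kilobase of exon it was 0.589 ± 0.0022 in POGK cells and 0.431 ± 0.024 in control cells. These are shares and ratios of counts over whole cultures, which do not give the amount of tubulin mRNA per cell.

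The upstream sequences of 6 isotypes are given to set some of the genes that rose (TUBB6, TUBB4B, TUBA1B and TUBA1C) beside those that did not pass (TUBB and TUBA1A). Each is the 250 bases before the RefSeq gene start nearest to the canonical transcript's start (build GRCh38.p14), and all 10 members matched the RefSeq table. Capitals mark motifs found on either strand: the CCAAT box CCAAT, the TATA box TATAAA, the CHR element TTTGAA, the GC box GGGCGG and the E2F sites TTTCCCGC and TTTGGCGC. Matches of different motifs can overlap, since GGGCGG and the E2F sites share letters on opposite strands.
TUBB6 (chr18:12307991-12308240, plus strand): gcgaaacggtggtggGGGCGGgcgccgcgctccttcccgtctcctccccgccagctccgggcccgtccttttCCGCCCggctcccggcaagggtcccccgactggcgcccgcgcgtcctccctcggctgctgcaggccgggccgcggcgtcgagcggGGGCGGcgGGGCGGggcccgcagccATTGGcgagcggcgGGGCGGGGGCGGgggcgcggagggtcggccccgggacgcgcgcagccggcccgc
TUBB4B (chr9:137241037-137241286, plus strand): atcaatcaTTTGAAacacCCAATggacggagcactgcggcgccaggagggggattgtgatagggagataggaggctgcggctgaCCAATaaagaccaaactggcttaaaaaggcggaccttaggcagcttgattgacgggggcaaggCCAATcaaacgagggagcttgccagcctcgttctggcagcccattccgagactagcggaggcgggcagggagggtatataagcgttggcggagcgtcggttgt
TUBA1B (chr12:49131396-49131645, minus strand): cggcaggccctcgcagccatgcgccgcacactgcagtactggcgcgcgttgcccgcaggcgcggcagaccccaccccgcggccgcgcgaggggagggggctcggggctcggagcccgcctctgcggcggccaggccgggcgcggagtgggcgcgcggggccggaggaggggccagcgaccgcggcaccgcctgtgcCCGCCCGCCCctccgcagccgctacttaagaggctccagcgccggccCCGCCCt
TUBA1C (chr12:49264832-49265081, plus strand): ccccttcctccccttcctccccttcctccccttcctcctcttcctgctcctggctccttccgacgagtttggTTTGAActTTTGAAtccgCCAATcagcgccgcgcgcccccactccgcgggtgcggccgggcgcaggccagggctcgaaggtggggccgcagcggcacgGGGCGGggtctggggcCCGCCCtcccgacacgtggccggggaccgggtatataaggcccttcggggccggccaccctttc
TUBB (chr6:30720102-30720351, plus strand): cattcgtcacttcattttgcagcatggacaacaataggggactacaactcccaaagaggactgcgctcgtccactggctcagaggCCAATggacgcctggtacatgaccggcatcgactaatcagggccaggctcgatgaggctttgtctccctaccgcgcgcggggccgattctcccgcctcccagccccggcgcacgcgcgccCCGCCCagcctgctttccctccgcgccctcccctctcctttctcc
TUBA1A (chr12:49189081-49189330, minus strand): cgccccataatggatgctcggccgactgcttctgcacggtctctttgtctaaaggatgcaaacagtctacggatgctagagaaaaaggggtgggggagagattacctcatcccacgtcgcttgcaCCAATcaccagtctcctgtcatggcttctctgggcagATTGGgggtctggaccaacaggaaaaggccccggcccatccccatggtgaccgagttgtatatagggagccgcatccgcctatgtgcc
A CCAAT box was found upstream of 7 of the 10 members and of 32.0% of the 35116 promoters in the table, and a GC box upstream of 8 members and of 42.6% of promoters. TUBB4B held 3 CCAAT boxes and 1 CHR element and no GC box (0), TUBA1C 1 CCAAT box, 2 CHR elements and 2 GC boxes, and TUBB6 1 CCAAT box and 6 GC boxes. TUBA1A held 2 CCAAT boxes and TUBB 1 CCAAT box and 1 GC box. TUBA1B, which rose about as much as TUBA1C, held no CCAAT box (0) and 3 GC boxes. TUBA4A and TUBB2A also rose, and their sequences are not printed. Both held no CCAAT box (0), with 4 GC boxes for TUBA4A and 5 for TUBB2A. Of the genes that fell, TUBB2B held 1 CCAAT box and 1 GC box, and TUBB3 1 CCAAT box and 3 GC boxes. A CHR element was found in 2 members and 13.3% of promoters, a TATA box in 1 member, TUBB2A, and 10.7% of promoters, and an E2F site in 0 members and 1.93% of promoters. Only the exact letters given above were searched, so a member without a match can still hold a variant of a motif. A match is a run of letters and does not show that a factor binds there.

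Of the rarer tubulins, 3 of 8 further alpha and beta genes were in the table and only TUBAL3 was tested, at a log2 fold change of -0.09 without passing (adjusted p by edgeR 0.701). TUBA3E had 7, 5 and 10 counts in the POGK libraries and 6, 3 and 1 in the control libraries, and TUBB4A had 10, 9 and 2 in the POGK libraries and 5, 6 and 8 in the control libraries. Of 4 genes for gamma, delta and epsilon tubulin, 2 rose, 0 fell and 2 did not pass, where 66.0% of all genes were called. TUBG1, the gamma tubulin from which microtubules are nucleated, had 5100, 5096 and 4221 counts in the POGK libraries and 980, 1847 and 1471 in the control libraries, without overlap, and rose 2.87-fold (adjusted p by edgeR 1.97e-05). TUBD1, of centrioles, rose 1.503-fold (adjusted p by edgeR 0.000607). Of 4 pseudogenes of alpha or beta tubulin in the table, TUBAP13 fell (log2 fold change of -0.63) and TUBBP1, TUBAP2 and TUBA5P did not pass.

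The gamma-tubulin ring complex templates new microtubules. Of its 9 genes, 4 rose, 2 fell and 3 did not pass, that is 6 called of 9, near the 66.0% called over all genes; the median log2 fold change was 0.08. TUBGCP5 rose 2.13-fold, TUBGCP4 1.36-fold and TUBGCP3 1.40-fold, all of them ring subunits, while MZT2B, a small subunit, fell 1.74-fold. Of 21 genes that fold tubulin (the CCT chaperonin, prefoldin and the tubulin cofactors), 12 rose, 3 fell and 6 did not pass, where 32.7% of all genes rose and 33.3% fell; the median was 0.24. CCT5 had 35321, 35579 and 29039 counts in the POGK libraries and 10849, 18032 and 13207 in the control libraries and rose 2.02-fold. CCT6A rose 1.91-fold and the prefoldin subunit VBP1 1.85-fold, whereas PFDN5, another prefoldin subunit, fell 2.05-fold. All of these named genes passed the edgeR test, the weakest being TUBGCP3 at an adjusted p of 0.00634. The number of folding genes that fell was 1 with library size alone and 5 without control replicate 3.

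In the feedback on tubulin mRNA, 8 of 12 genes rose, 2 fell and 2 did not pass, where 32.7% of all genes rose and 33.3% fell. The median log2 fold change was 0.35. All of the 12 but TTC5 and SCAPER are genes of the CCR4-NOT complex, so these counts describe mainly that complex. The 2 that fell included SCAPER, the adaptor, which had 656, 617 and 501 counts in the POGK libraries and 1100, 1128 and 1198 in the control libraries, without overlap, and fell 2.30-fold (adjusted p by edgeR 1.76e-05). CNOT8, a deadenylase of the CCR4-NOT complex, fell 2.13-fold, and its partner subunits CNOT11 and CNOT6 rose 2.24-fold and 1.69-fold, CNOT6 having the largest adjusted p of these by edgeR, 0.000269. TTC5, which reads the nascent tubulin and was chosen after its values were seen, rose with a log2 fold change of 0.55.

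Of 20 tested enzymes that modify tubulin, 5 rose, 7 fell and 8 did not pass, a number of calls near the 66.0% over all genes; the median log2 fold change was -0.02. VASH2, which removes the final tyrosine of alpha tubulin, had 234, 205 and 193 counts in the POGK libraries and 33, 73 and 54 in the control libraries and rose 3.37-fold. TTL, which puts that tyrosine back, rose 1.89-fold. Of the enzymes that remove glutamates from tubulin, AGTPBP1 fell 2.17-fold and AGBL5 1.46-fold. Among VASH2, TTL, AGTPBP1 and AGBL5 the largest adjusted p by edgeR was 0.000565, for AGBL5. Not all AGBL genes fell: AGBL3 rose 1.65-fold (adjusted p by edgeR 0.0298) and AGBL2 did not pass, both chosen after their values were seen. AGBL3 was scarce, at 1.17 CPM in POGK cells and 0.70 CPM in control cells. VASH1, a paralog of VASH2 chosen after its values were seen, fell with a log2 fold change of -1.40. With library size alone the number that rose was 8.

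Of 23 tested stabilizers and tip proteins of microtubules, 6 rose, 8 fell and 9 did not pass, a number of calls near the 66.0% of all genes; the median log2 fold change was -0.05. MAPT, the gene of tau, had 154, 162 and 105 counts in the POGK libraries and 803, 674 and 886 in the control libraries, without overlap, and fell 6.76-fold (adjusted p by edgeR 6.36e-06). MAP7D2, a kinesin cofactor, fell 17.5-fold, with 12, 12 and 5 counts in the POGK libraries and 182, 112 and 128 in the control libraries. MAPRE3, an end-binding protein, fell 2.17-fold and MAP7D3 rose 1.645-fold (adjusted p by edgeR 4.31e-05). MAPRE1 and MAPRE2, end-binding genes chosen after their values were seen, rose 1.42-fold and 1.23-fold (adjusted p by edgeR 0.000139 and 0.00268). In POGK cells they averaged 214 and 136 CPM, against 17.9 CPM for MAPRE3. The number that rose was 10 with library size alone and 10 without control replicate 2.

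Of 14 tested destabilizers and severing enzymes, 9 rose, 3 fell and 2 did not pass, where 32.7% of all genes rose and 33.3% fell; the median log2 fold change was 0.33. FIGNL1, related to the severing enzyme fidgetin, rose 2.66-fold and KIF18B, a kinesin that shortens astral microtubules, rose 2.10-fold. FIGN, the gene of fidgetin, fell 1.57-fold. STMN3, a stathmin that binds free tubulin, had 59, 92 and 53 counts in the POGK libraries and 196, 238 and 260 in the control libraries and fell 4.03-fold. All of these passed the edgeR test, the weakest being FIGN at an adjusted p of 0.000745.

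**Figure D4:**
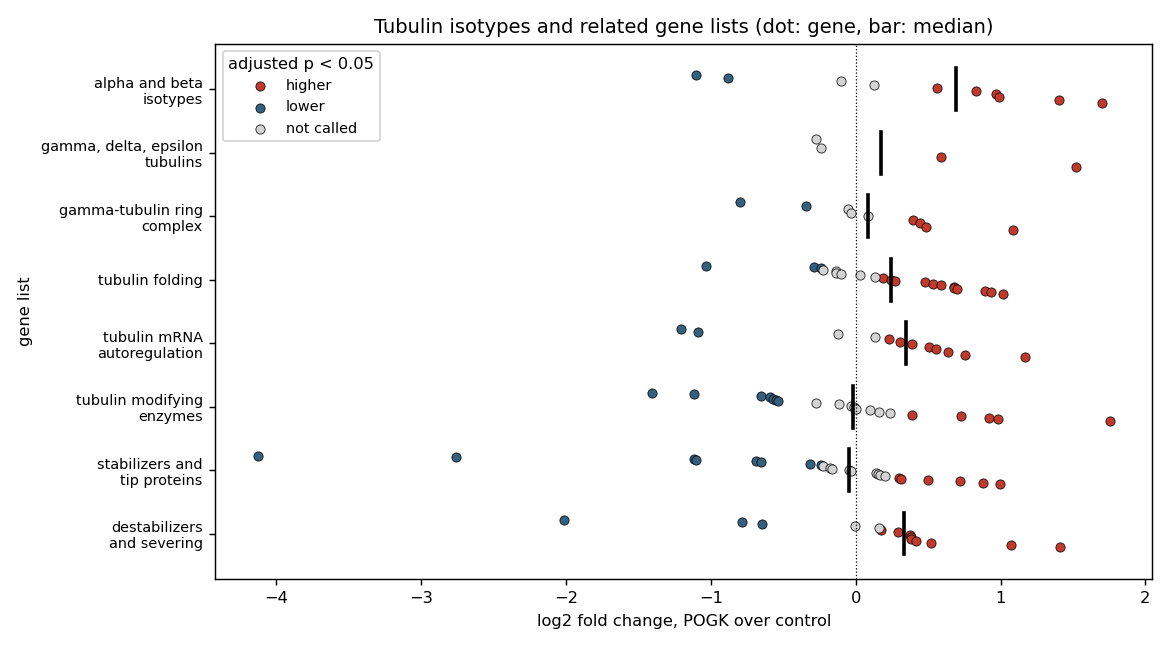
Log2 fold change of POGK over control (x axis) of each tested gene of the tubulin isotypes and 7 related lists (y axis), with a bar at each list's median. Red points passed the test as higher, blue as lower and grey points did not pass; the medians run from -0.05 for stabilizers and tip proteins to 0.69 for the isotypes.

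The protein-coding genes whose log2 levels over the 6 libraries were closest to those of TUBB6, each centred on its own mean, were GALNT7, SUV39H1 and MCM6, at Euclidean distances of 0.09, 0.10 and 0.15 log2 units among 9253 candidates. The closest to TUBB2B among 9254 candidates were HSD17B8, HDAC9 and RNF215, at 0.13, 0.16 and 0.20. These distances follow both the difference between the groups and the order of the control libraries. TUBB2B averaged 0.92 CPM in POGK cells and 1.97 CPM in control cells, so the 0.5 CPM added before logs shrank its profile. The log2 fold changes of HSD17B8, HDAC9 and RNF215 were -0.83, -0.89 and -0.77, against -1.10 for TUBB2B.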

How the data were processed

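RNA sequencing counts were analysed for 6 libraries in 2 groups of 3. Per the labels' protocols, ribosomal RNA was removed from total RNA and reads were aligned to hg38. Tools named in the submitters' processing notes are featureCounts, STAR, Trimmomatic, deepTools and SAMtools. The deposited counts are raw reads per Ensembl gene, per the file headers, and the lowest total over the 6 libraries was 21. A signal value per library (counts divided by a size factor) was deposited too and not used, and the authors' deposited log2 fold changes and p-values were used only where named.

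edgeR 4.0.16 (R 4.3.3; TMM scaling, default filter, robust quasi-likelihood test, Benjamini-Hochberg adjustment) was fitted over 15889 genes, with calls at an adjusted p below 0.05. Standard errors came from the F statistic, and 95% intervals used the test's degrees of freedom. On simulated counts for POGK against control cells (15569 genes), 81.9% of 200 genes changed 2-fold were recovered, with 8 false calls. The simulation gave both groups the same spread and changed only those 200 genes, whereas 66.0% of genes were called here. It therefore does not measure the error rate in these data. Alternatives were DESeq2 1.42.0, limma-voom (limma 3.58.1), other scalings and filters, a replicate block, and each library left out. Exon lengths came from GENCODE 44 and word searches covered the 24 chromosomes. Pairs of libraries within a group differed by more than sampling noise. The chi-square per gene was 1.36 to 2.76 for POGK pairs and 24.5 to 54.4 for control pairs. The fit used a common spread per gene for both groups. Members and lists were chosen with earlier results of these data known. Named are the 10 members, called genes among the other tubulins, the 4 genes with the smallest adjusted p of each related list, and the 3 nearest profiles of the members with the highest and lowest fold change, among genes of at least 10 CPM with 0.5 CPM added before logs. Genes said to be chosen after their values were seen are named besides these. The last coding bases of some isotypes are not reported here.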

Additional observations from a re-analysis of the deposited data

How the results depend on the processing

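Over 13 alternative fits, TUBB6, TUBB4B, TUBA1B, TUBA1C, TUBA4A, TUBB2A and TUBB2B kept their direction and their call. The 10 members' results matched the main one in 122 of 130 cases, where 4 lost the call, 3 gained it and 1 turned sign. The turn was TUBA1A, at 0.09 (0.0947) with library size alone, a scaling that moved the median of all genes to 0.19. The number of members that fell was 1 with library size alone, and 1 to 2 with 1 library left out. Also with library size alone, 1 ring complex gene and 1 folding gene fell, and 8 modifying enzymes and 10 stabilizers rose. With 1 library left out, the genes called lower numbered 0 to 1 for gamma, delta and epsilon tubulin and 2 to 5 for folding, and those called higher 5 to 10 for stabilizers. The difference in share of beta counts (POGK minus control, percentage points) moved with the length used: per kb of exon, of uniquely placed exon and of canonical transcript it was -16.4, -16.0 and -15.5 for TUBB (main -12.0), 13.3, 13.1 and 11.4 for TUBB4B (8.36), 3.11, 2.87 and 4.23 for TUBB6 (3.69), and -0.026, -0.024 and -0.069 for TUBB3 (-0.048). It was 0.049 for TUBB2A per kb of exon (0.078) and -0.067 for TUBB2B per kb of canonical transcript (-0.052), the last length being chosen after seeing the data. With the replicate number as a block, 10240 genes and 8 members were called. Deviations of same-numbered libraries correlated at 0.13, 0.063 and -0.0021. These values cannot tell whether the replicate numbers pair the libraries, since the POGK libraries differed little from each other. TUBB3 and TUBB2B rest on under 70 counts per library.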
